A study of Mus musculus with 36 samples.

Results

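The genes described here are the members of the mouse histone gene clusters, taken as every row of the raw count table whose older symbol begins with Hist1h, Hist2h, Hist3h or Hist4h and that had at least 10 counts in 3 or more of 36 libraries. Of 56980 gene rows, 70 carry such a symbol and 38 met the count threshold. They comprise 4 linker histone H1 genes, 6 H2A, 10 H2B, 6 H3 and 12 H4 genes, of which 30 belong to Hist1h, 4 to Hist2h, 3 to Hist3h and 1 to Hist4h. The symbols and the counts over all groups chose the members, so their being detected is no result. Just inside the threshold, with 3 libraries each, were Hist1h3h (68 counts in all libraries together), Hist1h4a (79), Hist1h4n (100) and Hist2h2ac (176). Just outside, with 2 libraries each, were Hist1h1a (55 counts), Hist1h2ab (79), Hist1h2ak (49), Hist1h2bb (114) and Hist1h3g (73). Of the 32 genes left out, 8 had no count in any library. Among these, every 50-base stretch of Hist2h2aa1, Hist2h2aa2, Hist2h2bb, Hist2h3b and Hist2h3c1 also occurs in another gene's transcripts. A count of 0 for them does not show that they are silent.

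The RNA came from brain tissue of Ndufs4 knockout (KO) and wild-type (WT) mice aged 37 to 45 days, gavaged for 3 days with CP2, a mitochondrial complex I inhibitor, or with vehicle. Ndufs4 encodes a subunit of mitochondrial complex I. The design text names hippocampus and cortex, while each library is labelled brain. Titles carry a letter, F or M, and a number such as L246 that names the library below. The 8 groups are KO vehicle F, WT vehicle F, KO CP2 F, WT CP2 F, KO CP2 M and WT CP2 M with 5 libraries each, and KO vehicle M and WT vehicle M with 3 libraries each. The labels give no strain, no dose, no age per animal and no statement on littermates, and describe the knockout only as ndufs4-ko.

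Replication-dependent histone genes are transcribed mainly in dividing cells during DNA synthesis, and their messenger RNAs end in a conserved stem-loop instead of a polyA tail. The stem-loop is bound by SLBP and cut downstream by a complex that includes the U7 small nuclear RNP, of which Lsm10 and Lsm11 are parts. Some of these genes are also transcribed past the stem-loop to a downstream polyA site, or are spliced, and give polyadenylated messages in cells that no longer divide, such as most cells of the adult brain. Linker histone H1 binds DNA between nucleosomes, while H2A, H2B, H3 and H4 form the core particle around which DNA is wrapped. The libraries were polyA-enriched, so a message without a tail is captured poorly and its count need not follow its amount in the cell.

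The stem-loop is printed for the members on which the results turn, because it is the 3′ end that a polyA selection would miss. In the GENCODE M21 transcripts, the pattern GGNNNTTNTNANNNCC was found after the stop codon in 29 of 38 members, beginning 22 to 55 bases after it. Among 21834 protein-coding genes without such a histone symbol, 35 (0.16%) held it in the first 100 bases after the stop codon. Of the 9 members without a match, 7 had no modelled sequence after the stop codon, and the other two were Hist1h2bc and Hist2h2be. In the lines below, written as DNA of the sense strand, capitals mark the 16-base element.
Hist1h1c: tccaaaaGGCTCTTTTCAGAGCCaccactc
Hist1h1e: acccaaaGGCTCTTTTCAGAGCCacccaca
Hist1h2ac: acccaaaGGCTCTTTTCAGAGCCcccactt
Hist3h2a: caccaaaGGCTCTTTTCAGAGCCacccaca
Hist1h2be: aaccaaaGGCTCTTTTCAGAGCCacccaac
Hist3h2ba: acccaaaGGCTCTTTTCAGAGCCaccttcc
Hist2h3c2: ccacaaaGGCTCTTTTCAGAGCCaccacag
Hist1h4h: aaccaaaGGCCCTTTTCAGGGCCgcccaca
Hist1h4i: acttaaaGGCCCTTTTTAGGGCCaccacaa
Hist2h4: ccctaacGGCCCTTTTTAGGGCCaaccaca
The element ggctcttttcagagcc was carried by 15 members and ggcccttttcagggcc by 6. The modelled transcript went on for 2010 bases beyond the element in Hist1h2ac, 1861 in Hist1h2be, 1643 in Hist3h2a, 1153 in Hist1h1e, 377 in Hist2h3c2 and 330 in Hist1h4i. In Hist1h4h it went on for 46 bases.

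A member was expected to be polyadenylated where GENCODE M21 has a transcript of it with more than 1 exon or more than 200 bases after the stop codon. By this rule 21 members were expected to be polyadenylated, and the other 17 were grouped as ending in the stem-loop only. The 17 include the 7 members with no modelled sequence after the stop codon. These are Hist1h1b, Hist1h2ai, Hist1h2bn, Hist1h3h, Hist1h3i, Hist1h4k and Hist3h2bb-ps, the last annotated as a processed pseudogene. They fell in this group by default, because no sequence was modelled in which a stem-loop could be searched for. An AATAAA or ATTAAA hexamer lay in the last 50 bases of any modelled transcript in 10 of the 21 (47.6%) and in 3 of the 17 (17.6%; Hist1h2ae, Hist1h4a and Hist1h4h). Over all protein-coding genes only the longest transcript was searched, and 15804 of 21901 (72.2%) held it. Hist1h4h was thus grouped as stem-loop only although its modelled end holds such a hexamer. Annotated ends are not ends measured in these libraries.

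Levels were low for most members. They are given in CPM (gene counts relative to library size), with library sizes scaled by the trimmed mean of M values, and between genes as CPM per kilobase of exon. Per kilobase, Hist3h2ba (H2B; 34.4 CPM per kb), Hist1h2bc (H2B; 28.2) and Hist1h1c (H1; 23.3) stood above Hist3h2a (H2A; 4.99), Hist1h4h (H4; 4.11) and Hist2h2be (H2B; 3.4). Hist2h3c2, at 1.35 CPM per kb, was the H3 gene with the highest CPM. In CPM, Hist1h1c averaged 36.4, Hist1h2bc 32.5, Hist3h2ba 21.1, Hist3h2a 10.7 and Hist2h2be 8.91 over all libraries, and these 5 genes held 85.2% of the summed member CPM. The other 33 held 14.8%. By class, H2B genes held 53.3% of the sum, H1 29.9%, H2A 9.79%, H4 5.14% and H3 1.81%. Members expected to be polyadenylated held 95.8% and those with the stem-loop only 4.21%. The lowest member was Hist1h3h at 0.0338 CPM.

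**Figure D1:**
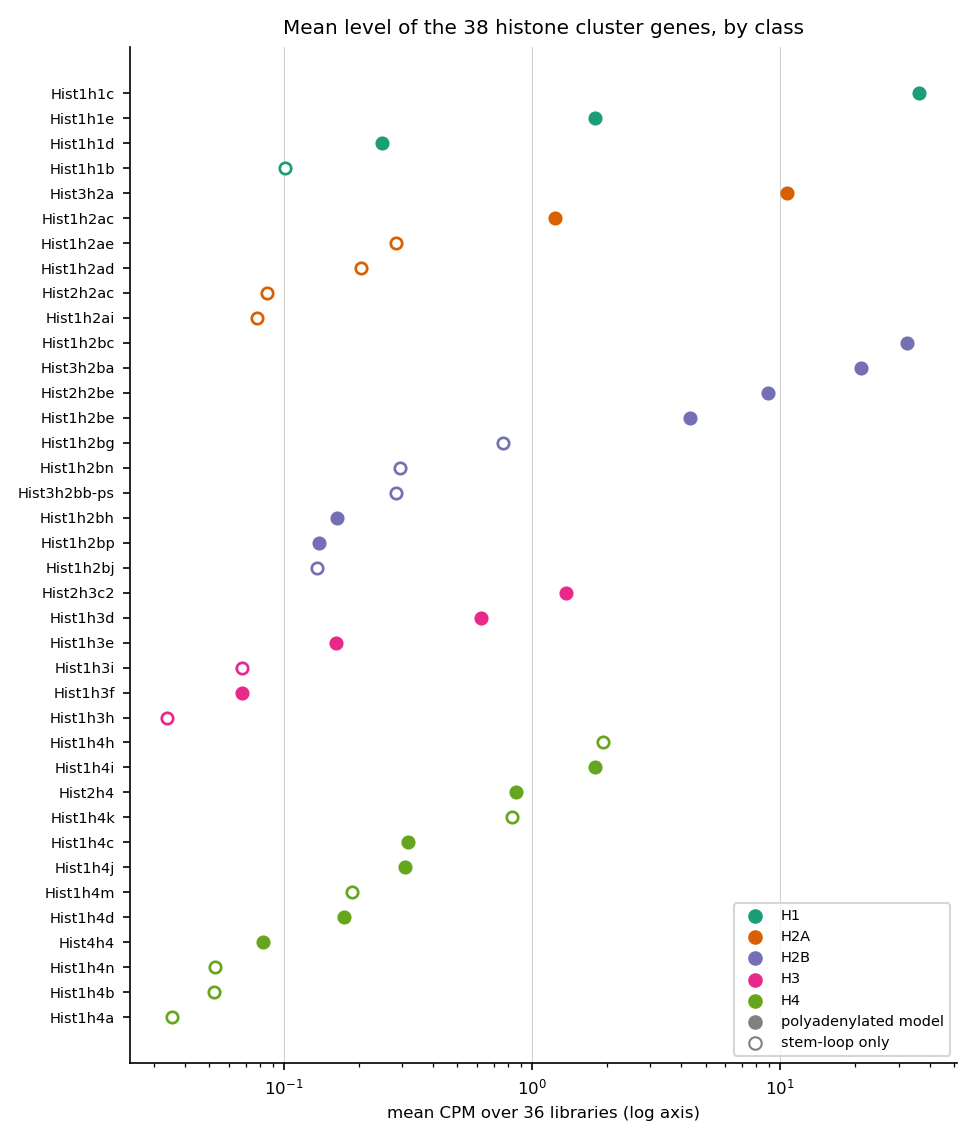
Mean level of the 38 histone cluster genes over all 36 libraries on a log10 axis of CPM, grouped by histone class and marked by expected polyA status. Hist1h1c, Hist1h2bc and Hist3h2ba lie highest, at 36.4, 32.5 and 21.1 CPM, and Hist1h3h lies lowest at 0.0338 CPM.

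Of the 38 members, 34 passed the filter on low counts used for the test. Hist1h3i, Hist1h4a, Hist1h4n and Hist2h2ac did not pass and have no test. Passing the filter depends on the groups in which a gene is high, so counts over the 34 are descriptions. Only 11 members had at least 10 counts in all 36 libraries: Hist1h1c, Hist1h1e, Hist1h2ac, Hist1h2bc, Hist1h2be, Hist1h4h, Hist1h4i, Hist2h2be, Hist2h3c2, Hist3h2a and Hist3h2ba.

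In vehicle-treated mice, 8 of the 34 tested members fell in KO against WT with F and M averaged, and none rose (edgeR quasi-likelihood test, Benjamini-Hochberg adjusted p under 0.05). Over all 25601 tested genes, 972 (3.8%) were lower by the same rule. The 8 genes were Hist1h1e, Hist1h2ac, Hist3h2a, Hist1h2bc, Hist1h2be, Hist2h3c2, Hist1h4h and Hist1h4i. The fitted value was negative for 30 of the 34, with a median log2 fold change of -1.07 against 0.0221 over all tested genes, of which 53.5% were positive. At an unadjusted p under 0.05 there were 14 members, and 5536 of all 25601 tested genes. Among the 11 members with counts in every library, 8 were called, 10 were negative and the median was -1.04. In bulk tissue, fewer cells of a type and less RNA per cell cannot be told apart.

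With F and M averaged, all classes held a called gene. For the linker histones it was 1 of 4 (median log2 fold change -0.83), for H2A 2 of 5 (-0.84), for H2B 2 of 10 (-0.69), for H3 1 of 5 (-1.19) and for H4 2 of 10 (-1.14). Every tested H3 gene and every tested H4 gene had a negative value. Within M alone, no H1 or H2A gene was called, and 2 of the 4 H1 genes were positive (median -0.09). Members expected to be polyadenylated were called in 7 of 21 cases, with 19 negative and a median of -1.09. Of those with the stem-loop only, 1 of 13 was called, Hist1h4h, with 11 negative and a median of -1.05. Most members with the stem-loop only lie below 1 CPM, where the test recovers less: in data simulated for this contrast, 3-fold changes were recovered for 99.1% of 116 genes over 1 CPM, for 56.7% of 30 genes between 0.3 and 1 CPM and for 3.7% of 54 genes below that.

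**Figure D2:**
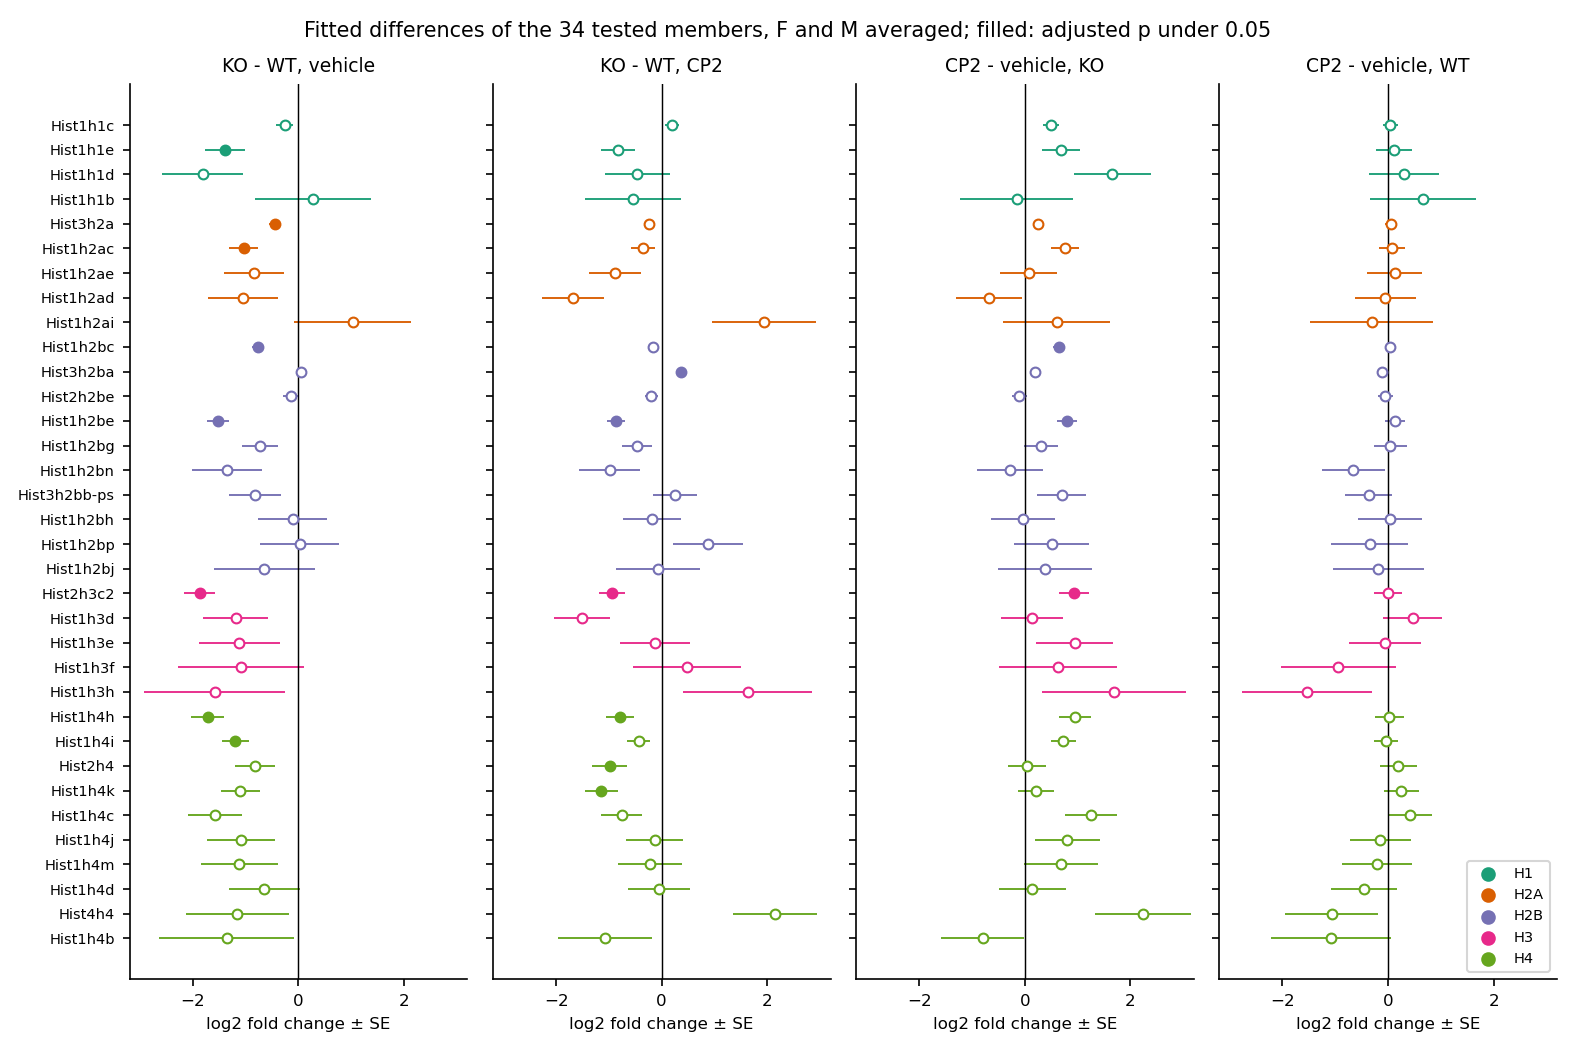
Fitted log2 fold changes with standard errors of the 34 tested members in 4 comparisons, F and M averaged; filled points have an adjusted p under 0.05. In vehicle-treated KO against WT, 30 of 34 points lie below 0, and under CP2 in KO 28 of 34 lie above 0.

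Hist2h3c2, an H3 gene, had the largest fitted difference among the called members. It was 0.588, 0.3, 0.438, 0.48 and 0.933 CPM in KO vehicle F and 2.41, 1.56, 2.35, 1.58 and 1.95 CPM in WT vehicle F. In KO vehicle M it was 0.968, 0.254 and 0.313 CPM and in WT vehicle M 1.29, 1.96 and 2.5 CPM. Every KO library lay below every WT library of its letter, and the fitted level was 3.66-fold lower (log2 fold change -1.87, SE 0.30, adjusted p = 0.000157). Of the 50-base windows of its transcripts, 63.5% also occur in another gene's transcripts, so reads from these windows may not have been counted for it. Hist2h2aa1, Hist2h2aa2, Hist2h2bb, Hist2h3b and Hist2h3c1, which share 100% of their windows, had 0 counts in all libraries together.

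Hist1h4h, an H4 gene, was 1.33, 0.565, 0.996, 0.824 and 1.66 CPM in KO vehicle F and 4.1, 2.58, 2.37, 2.79 and 2.66 CPM in WT vehicle F. It was 1.05, 0.402 and 0.239 CPM in KO vehicle M and 3.55, 2.0 and 1.24 CPM in WT vehicle M. The genotypes did not overlap within either letter, and the fit put KO 3.29-fold lower (log2 fold change -1.72, SE 0.32, adjusted p = 0.000768). Hist1h4i, another H4 gene, was 1.43, 0.776, 0.916, 1.12 and 0.622 CPM in KO vehicle F and 3.43, 1.53, 1.95, 3.99 and 2.78 CPM in WT vehicle F. In M it was 0.741, 0.973 and 1.14 CPM in KO and 2.36, 2.3 and 0.697 CPM in WT. For Hist1h4i the F groups did not overlap, while in M the lowest library of all was the WT library L303, and the fit gave a log2 fold change of -1.20 (SE 0.26, adjusted p = 0.00295; 0.096 with the covariate for reads outside genes). Of their 50-base windows, 45.8% (Hist1h4h) and 28.9% (Hist1h4i) are shared with other genes.

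Both called H2B genes lie in the Hist1h group and differ in level. Hist1h2be was 1.27, 1.99, 1.43, 2.45 and 2.78 CPM in KO vehicle F and 9.01, 4.72, 4.45, 5.1 and 4.57 CPM in WT vehicle F. In KO vehicle M it was 2.24, 2.18 and 1.2 CPM, and in WT vehicle M 5.57, 5.8 and 5.42 CPM. No KO library reached a WT library (log2 fold change -1.53, SE 0.21, adjusted p = 2.4e-05). Hist1h2bc, the H2B gene with the highest CPM, was 25.5, 18.6, 17.9, 23.0 and 26.9 CPM in KO vehicle F and 44.9, 39.9, 41.9, 29.6 and 36 CPM in WT vehicle F. It was 23.5, 22.2 and 15.1 CPM in KO vehicle M and 37.1, 37.7 and 27.0 CPM in WT vehicle M. Its genotypes were also separate in both letters, with a smaller difference of 1.70-fold (log2 fold change -0.76, SE 0.12, adjusted p = 0.000128).

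Among linker histones, Hist1h1e was 1.37, 0.988, 0.617, 0.48 and 0.588 CPM in KO vehicle F and 2.89, 1.75, 2.42, 2.57 and 2.49 CPM in WT vehicle F. It was 1.28, 1.25 and 0.313 CPM in KO vehicle M and 2.48, 2.39 and 1.65 CPM in WT vehicle M. The genotypes did not overlap within F or within M (log2 fold change -1.39, SE 0.38, adjusted p = 0.0232). The call was lost when the outside-gene read share, described below, entered the fit as a covariate (adjusted p = 0.142) and without L322, L285 or L300 (adjusted p up to 0.102). Hist1h1e and Hist1h2be share 496 exon bases on the same strand in GENCODE M21, which is 25.7% of the exons of Hist1h1e and 11.2% of those of Hist1h2be, and whether reads in this stretch were counted for either gene is not given in the sources used here. Hist1h1c, the H1 gene with the highest CPM, was 19.7, 37.8, 24.5, 28.4 and 24.6 CPM in KO vehicle F against 36.6, 37.3, 45.6, 37.0 and 40.7 CPM in WT vehicle F. In M it was 33.8, 34.6 and 28.4 CPM in KO and 32.4, 32.6 and 30.6 CPM in WT. For Hist1h1c the groups overlapped in both letters and the difference did not pass the test (log2 fold change -0.26, SE 0.16, adjusted p = 0.339).

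Of the H2A genes, 2 were called, and Hist3h2a had the smallest difference of the 8. Hist1h2ac was 1.16, 0.212, 0.478, 1.15 and 0.95 CPM in KO vehicle F and 1.4, 1.05, 1.18, 1.2 and 1.6 CPM in WT vehicle F. In M it was 0.659, 0.719 and 0.516 CPM in KO and 1.76, 2.32 and 0.852 CPM in WT. Its genotypes overlapped in F and not in M (log2 fold change -1.04, SE 0.27, adjusted p = 0.0156). Hist3h2a was 6.71, 8.45, 5.52, 8.48 and 8.85 CPM in KO vehicle F and 12.7, 12.3, 12.5, 11.5 and 13.6 CPM in WT vehicle F. It was 11, 9.62 and 8.42 CPM in KO vehicle M and 11.3, 12 and 9.14 CPM in WT vehicle M. The F groups of Hist3h2a were apart and the M groups overlapped (log2 fold change -0.44, SE 0.11, adjusted p = 0.0119). The calls for Hist1h2ac and Hist3h2a were lost with the same covariate (adjusted p = 0.237 and 0.205) and without L322 or L300 (adjusted p up to 0.0794 and 0.0613). Hist3h2a shares 708 exon bases (33%) with Trim17 on the same strand.

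**Figure D3:**
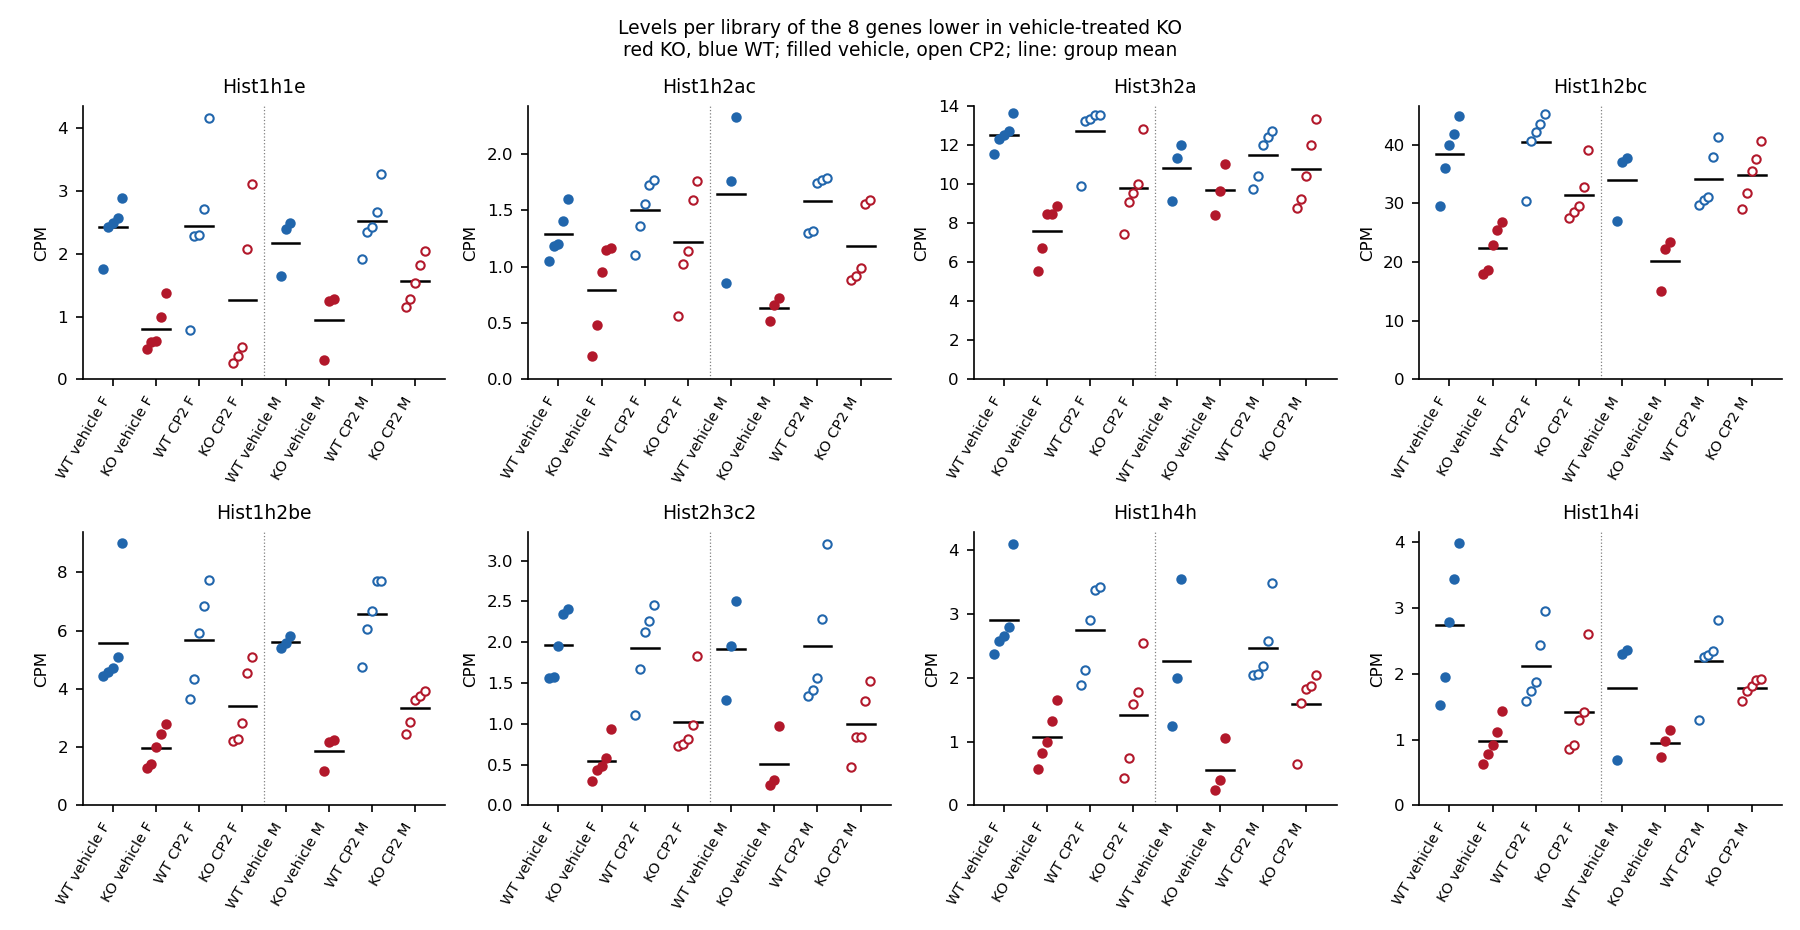
Levels per library, in CPM on linear axes from 0, of the 8 genes called lower in vehicle-treated KO; red is KO, blue is WT, filled points are vehicle, open points are CP2 and lines are group means. Hist1h2be in KO vehicle stays at or below 2.78 CPM, and in WT vehicle at or above 4.45 CPM.

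Within F alone, 8 members fell (Hist1h1d, Hist1h1e, Hist1h2bc, Hist1h2be, Hist1h4h, Hist1h4i, Hist2h3c2 and Hist3h2a), 27 of 34 were negative and the median log2 fold change was -0.82. Over all genes 752 (2.94%) were lower there. Within M, where the groups hold 3 libraries, 4 members fell (Hist1h2bc, Hist1h2be, Hist2h3c2 and Hist1h4c), 29 were negative and the median was -0.90. The corresponding share of all genes was 0.289% (74 genes). The difference between F and M passed the test for Hist1h4c alone among the members (0.102% of all genes, 26 genes, in either direction), and for none by DESeq2.

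Hist1h4c and Hist1h1d, both expected to be polyadenylated, were chosen for a closer description after their values were seen. Hist1h4c, an H4 gene, had 0, 2 and 1 counts in KO vehicle M and 33, 17 and 11 counts in WT vehicle M. The ratio of KO to WT at equal depth was 0.0525, with a 95% exact interval of 0.0105 to 0.161 that covers counting error only. In F the direction was the opposite, with 126 counts in KO vehicle and 66 in WT vehicle, a ratio of 1.96 (1.44 to 2.68). The fitted difference of F minus M was 4.99 on the log2 scale (SE 1.05, adjusted p = 0.0331). A fitted value that rests on counts this close to 0 depends on the prior count. Hist1h1d, a linker histone, had 0, 0, 0, 6 and 5 counts in KO vehicle F and 30, 23, 31, 13 and 21 in WT vehicle F, a ratio of 0.0955 (0.0464 to 0.177; edgeR adjusted p = 0.0358). In M its groups overlapped, at 7, 11 and 1 counts in KO and 6, 14 and 5 in WT.

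Genes of the same cluster did not all differ alike. Hist3h2ba, an H2B gene of the Hist3h group like Hist3h2a, was 22, 18.7, 25.5, 22.8 and 17.7 CPM in KO vehicle F and 18, 18.1, 20.9, 20.7 and 22.6 CPM in WT vehicle F. In M it was 20.9, 18.8 and 22.3 CPM in KO and 20.9, 22.2 and 18.8 CPM in WT. Its groups overlapped and the fitted difference was 0.05 on the log2 scale (SE 0.09, adjusted p = 0.814). Hist2h2be, the fifth of the genes with the highest CPM, averaged 9.04 ± 0.831 CPM (SD, n = 5) in F libraries of KO vehicle and 10.2 ± 1.77 (n = 5) in those of WT vehicle, and 8.28 ± 3.13 (n = 3) against 8.9 ± 0.966 (n = 3) in M. The fitted difference of Hist2h2be was -0.14 (SE 0.14, adjusted p = 0.617).

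The summed level of the 33 members outside the 5 highest gives the size of the difference without those genes. Among the 33 are the called genes Hist1h1e, Hist1h2ac, Hist1h2be, Hist2h3c2, Hist1h4h and Hist1h4i. Hist1h2be alone averaged 1.99 CPM in KO vehicle F and 5.57 in WT vehicle F. The summed level thus holds those calls again and does not show that the other members fell. In F it was 10.4 ± 1.98 CPM (SD, n = 5; 8.38 to 13.3) in KO vehicle and 24.3 ± 4.19 (n = 5; 21 to 31.7) in WT vehicle. In M it was 10.2 ± 2.77 (n = 3; 6.96 to 11.8) and 24.3 ± 4.42 (n = 3; 19.2 to 27.2). These ranges did not overlap. The 5 highest genes together came to 87.4 ± 5.41 and 121 ± 9.31 CPM in F and to 91.2 ± 9.37 and 106 ± 10.2 CPM in M. The M ranges of that sum were 80.4 to 97.1 and 94.4 to 112, and overlapped.

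By polyA status the sums, which also hold called genes, again ran the same way. Members with the stem-loop only summed to 3.45 ± 1.05 CPM in KO vehicle F and 6.76 ± 0.555 in WT vehicle F, and to 2.95 ± 0.999 and 7.21 ± 2.33 in M. Those expected to be polyadenylated summed to 94.3 ± 6.01 and 138 ± 10.2 CPM in F, and to 98.4 ± 11.2 and 123 ± 12.6 in M. No range overlapped between genotypes within a letter. H3 genes summed to 0.918 ± 0.308 CPM in KO vehicle F and 3.13 ± 0.718 in WT vehicle F, and H4 genes to 4.06 ± 0.437 and 8.52 ± 1.87. In F the sums of H1, H2A and H2B genes were also lower in KO, without overlap. In M, H1 genes summed to 33.4 ± 4.04 CPM in KO vehicle and 34.2 ± 1.57 in WT vehicle, and H2A genes to 10.9 ± 1.24 and 13.6 ± 2.47. The M ranges of H1 and H2A overlapped, and those of H2B, H3 and H4 did not. The n of these groups is 5 in F and 3 in M, and the errors are SD.

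**Figure D4:**
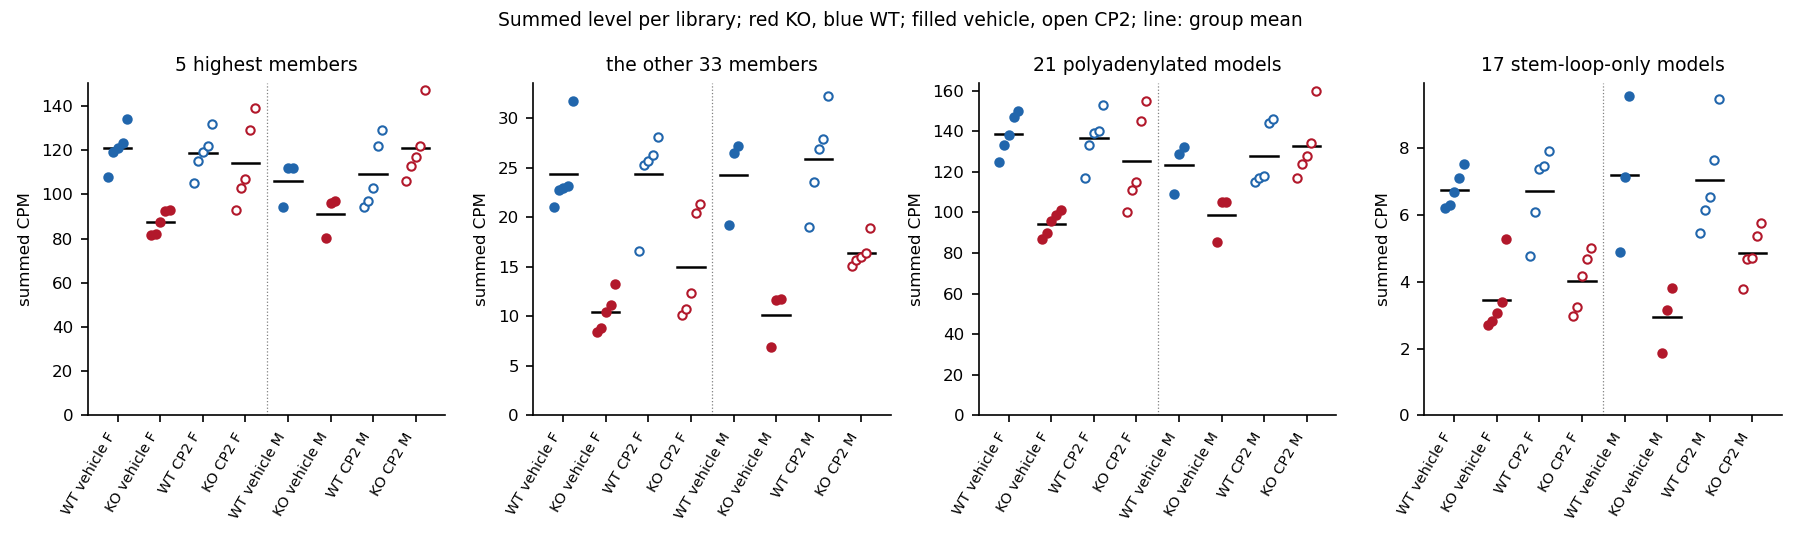
Summed CPM per library of member sets by group, on linear axes from 0; red is KO, blue is WT, filled points are vehicle, open points are CP2 and lines are group means. Outside the 5 highest genes, KO vehicle libraries sum to at most 13.3 CPM and WT vehicle libraries to at least 19.2 CPM.

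In CP2-treated mice, 5 members were lower in KO than in WT with F and M averaged (Hist1h2be, Hist2h3c2, Hist1h4h, Hist1h4k and Hist2h4) and 1 was higher, Hist3h2ba. Over all genes 1553 (6.07%) were lower and 1419 (5.54%) higher, so the members' shares are closer to the background here than in vehicle-treated mice. Of the 34, 26 were negative and the median log2 fold change was -0.30. Without the KO CP2 M libraries L266 and L291, described below, 3 members were lower (Hist1h2be, Hist2h3c2 and Hist1h4h) and Hist3h2ba was higher. In that fit 2240 of 25439 tested genes (8.81%) were called in either direction. In F alone 1 member was higher, again Hist3h2ba (all genes higher 0.715%, 183 genes), and in M alone 1 was lower, Hist1h2be (all genes lower 5.24%, 1341 genes).

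Hist1h2be was 2.29, 2.2, 2.83, 5.11 and 4.56 CPM in KO CP2 F and 4.34, 5.92, 6.84, 7.73 and 3.64 CPM in WT CP2 F. In KO CP2 M it was 3.93, 2.87, 3.62, 2.46 and 3.77 CPM and in WT CP2 M 7.69, 7.69, 6.66, 6.07 and 4.74 CPM. The F groups overlapped, the M groups did not, and the averaged log2 fold change was -0.86 (SE 0.17, adjusted p = 0.000721).

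Hist2h3c2 was 2.13, 2.46, 2.26, 1.67 and 1.11 CPM in WT CP2 F and 3.21, 1.56, 2.28, 1.34 and 1.41 CPM in WT CP2 M. The KO CP2 libraries, printed with the CP2 response further on, overlapped them in both letters, and the log2 fold change was -0.94 (SE 0.25, adjusted p = 0.00876). Hist1h4h was 2.55, 0.43, 0.741, 1.59 and 1.78 CPM in KO CP2 F and 2.91, 3.38, 2.12, 3.42 and 1.89 CPM in WT CP2 F. In M it was 1.87, 2.04, 1.6, 0.657 and 1.82 CPM in KO and 3.48, 2.04, 2.06, 2.57 and 2.19 CPM in WT. Its groups overlapped in F and met at 2.04 CPM in M (-0.79, SE 0.26, adjusted p = 0.0412). The call for Hist1h4h was lost with no filter on low counts and in 11 of 20 fits that each left out 1 CP2 library (adjusted p up to 0.081).

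Hist1h4k is an H4 gene grouped as stem-loop only because no sequence after its stop codon is modelled. It was 0.349, 0.198, 0.0741, 0.472 and 0.651 CPM in KO CP2 F and 1.27, 0.721, 1.1, 1.16 and 0.731 CPM in WT CP2 F, with no overlap. In M, at 0.263, 0.511, 1.05, 0.967 and 1.43 CPM in KO and 2.47, 2.01, 0.885, 1.09 and 0.78 CPM in WT, Hist1h4k overlapped (average -1.14, SE 0.31, adjusted p = 0.0119). It shares 71.5% of its 50-base windows with other genes. Hist2h4, an H4 gene, was 0.244, 0.397, 0.593, 1.01 and 0.222 CPM in KO CP2 F and 0.663, 1.95, 0.81, 1.42 and 0.696 CPM in WT CP2 F. In M it was 0.362, 1.0, 0.606, 0.803 and 0.982 CPM in KO and 1.4, 1.9, 1.15, 1.09 and 0.906 CPM in WT. The groups of Hist2h4 overlapped in both letters (average -0.98, SE 0.33, adjusted p = 0.0430). Its call was lost with the covariate for reads outside genes, without L266 and L291, and in 11 of 20 fits that each left out 1 CP2 library (adjusted p up to 0.109).

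Hist3h2ba differed the other way. It was 28.9, 26.2, 31.1, 25.2 and 25.3 CPM in KO CP2 F and 18.2, 19.6, 17.4, 22.8 and 17.8 CPM in WT CP2 F, so that every KO library lay above every WT library. In M it was 20.8, 18.4, 17.6, 23.1 and 25.4 CPM in KO and 18.1, 15.8, 16.6, 22.7 and 18.2 CPM in WT, and the groups overlapped. The log2 fold change was 0.36 averaged (SE 0.08, adjusted p = 0.00131), 0.51 in F (SE 0.11, adjusted p = 0.00864) and 0.21 in M (SE 0.11, adjusted p = 0.247).

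CP2 against vehicle within KO raised 3 members, Hist1h2bc, Hist1h2be and Hist2h3c2, with F and M averaged. Over all genes 532 (2.08%) were higher. Of the 34 tested members 28 were positive, with a median log2 fold change of 0.56 against 9.89e-05 over all genes, of which 50% were positive. An unadjusted p under 0.05 was found for 12 members and for 4641 of all 25601 tested genes. This comparison uses the same 8 KO vehicle libraries as KO against WT with vehicle, so low values in those libraries enter both and the opposite signs are not independent of each other. Members expected to be polyadenylated were positive in 19 of 21 cases (median 0.64, 3 called) and those with the stem-loop only in 9 of 13 (median 0.31, 0 called, 1 at an unadjusted p under 0.05). The count depended on the model. No member was called when the fit included the outside-gene read share, or the title number, as a covariate (all genes 0.0% and 0.199%). Under DESeq2 7 were called, which adds Hist1h1c, Hist1h2ac, Hist1h4h and Hist1h4i (all genes 6.17%), and without L266 and L291 2 were called, Hist1h2bc and Hist1h2be (all genes 2.07%).

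Hist1h2bc was 27.5, 28.5, 29.5, 32.8 and 39.1 CPM in KO CP2 F and 40.7, 31.8, 35.6, 29.1 and 37.5 CPM in KO CP2 M. All of these lie above the highest KO vehicle library of the same letter, 26.9 CPM in F and 23.5 CPM in M (log2 fold change 0.64, SE 0.11, adjusted p = 0.00176). WT vehicle libraries of Hist1h2bc were at 38.5 ± 5.91 CPM in F (SD, n = 5) and 33.9 ± 6.02 in M (n = 3). For Hist1h2be the log2 fold change was 0.80 (SE 0.19, adjusted p = 0.0145), with KO CP2 and KO vehicle apart in M and overlapping in F. Hist2h3c2 was 0.734, 0.992, 0.759, 0.816 and 1.83 CPM in KO CP2 F and 1.28, 0.84, 0.839, 1.53 and 0.475 CPM in KO CP2 M. Its range overlapped that of KO vehicle in both letters, and the adjusted p of its log2 fold change of 0.93 (SE 0.28) was 0.0495, at the threshold. The call for Hist2h3c2 was kept in 1 of 7 alternatives, the DESeq2 test (adjusted p up to 0.669 in the 7). It was kept in 6 of 18 fits that each left out 1 KO library (adjusted p up to 0.199).

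By letter, no member passed in F, where 0.0859% of all genes (22) were called in either direction. There 7 members and 2827 of all 25601 tested genes had an unadjusted p under 0.05. DESeq2 called 1 member in F, Hist1h2bc, with 0.805% of all genes. In M 2 members rose, Hist1h2bc (log2 fold change 0.79, SE 0.17, adjusted p = 0.0043) and Hist1h4c (2.90, SE 0.85, adjusted p = 0.0372), against 2.36% of all genes (604). Hist1h4c had 12, 15, 19, 7 and 0 counts in KO CP2 M, and its call was lost by DESeq2, with no filter on low counts and with either covariate named above. Without L266 and L291, Hist1h2bc alone remained called in M (all genes 1.45%, in either direction). Hist1h1c was 41.1, 44.6, 44.1, 37.3 and 60.9 CPM in KO CP2 M, above all KO vehicle M libraries, and 30.7, 22.5, 34.8, 60 and 43.1 CPM in KO CP2 F, which overlapped vehicle. Its averaged change of 0.50 (SE 0.15, adjusted p = 0.0508) did not pass the test.

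In WT mice edgeR called none of the 34 members and none of all tested genes (0.0%) for CP2 against vehicle. No member had an unadjusted p under 0.05, 1031 genes had one, and DESeq2 called 0 genes. The median log2 fold change of the members was -0.02. Hist1h2bc differed by 0.04 (SE 0.11), Hist1h2be by 0.13 (SE 0.19) and Hist2h3c2 by -0.00 (SE 0.26). The test of the difference in CP2 response between KO and WT called none of the members (0.715% of all genes, 183, in either direction). An unadjusted p under 0.05 was found for 8 members and for 3736 of all 25601 tested genes. DESeq2 called 1 member, Hist1h2bc, with 2.27% of all genes (582). The edgeR value of Hist1h2bc was 0.60 (SE 0.15, adjusted p = 0.0505), with 0.67 (SE 0.27, adjusted p = 0.221) for Hist1h2be and 0.93 (SE 0.38, adjusted p = 0.231) for Hist2h3c2. A response of the members to CP2 that differs between genotypes was therefore not shown by the main test.

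**Figure D5:**
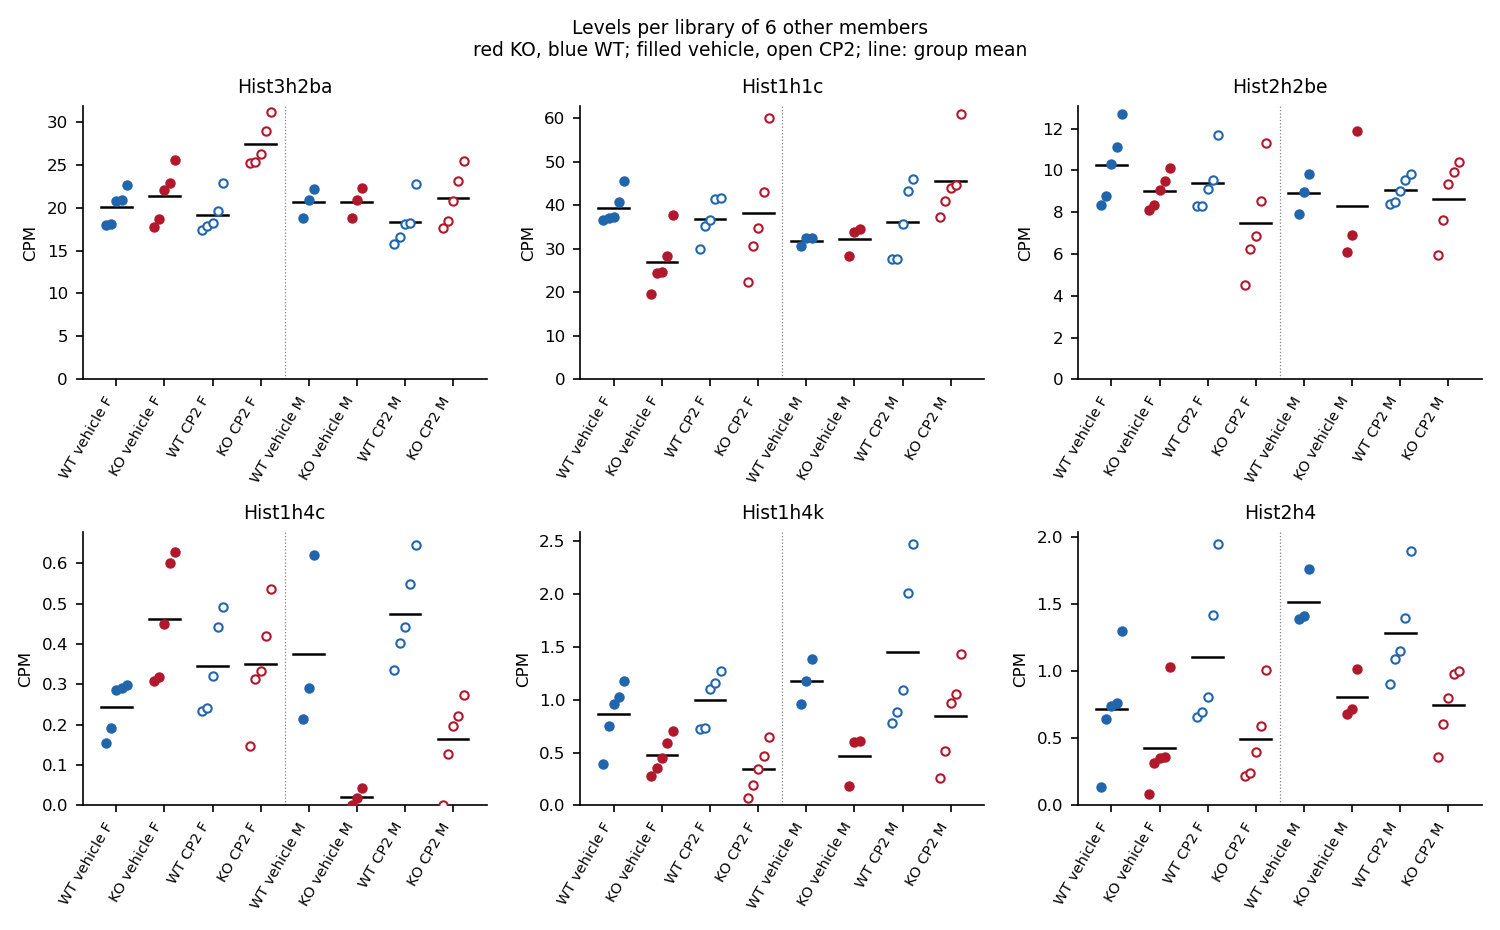
Levels per library, in CPM on linear axes from 0, of Hist3h2ba, Hist1h1c, Hist2h2be, Hist1h4c, Hist1h4k and Hist2h4; red is KO, blue is WT, filled points are vehicle, open points are CP2 and lines are group means. Hist3h2ba in KO CP2 F lies at 25.2 CPM or above, over all WT CP2 F libraries, and Hist1h4c in KO vehicle M lies at 0.0423 CPM or below.

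Promoters, from 250 bases before to 50 bases after the start, were matched by Entrez gene identifier in RefSeq (GRCm38.p6) for 33 members. The CCAAT box was present on either strand in 25 of them, in all 4 H1, 6 H2A, 7 H2B and 5 H3 promoters and in 3 of 11 H4 promoters. Of 32851 RefSeq promoters 37.4% held it. TATAAA was found in 21 of 33 (13.6% of all promoters), and the octamer ATTTGCAT, the site of Oct factors in histone H2B promoters, in 6 of 33 (1.74% of all promoters), 4 of H2A and 2 of H2B genes. Of the 7 members lower in vehicle-treated KO that have a promoter there, 5 held CCAAT, 3 TATAAA and 3 the octamer. Printed are the promoter of Hist2h3c2, the called member with the largest difference (chr3:96239078-96239377, minus strand), and those of Hist3h2a (chr11:58954435-58954734, plus strand) and Hist3h2ba (chr11:58948661-58948960, plus strand), Hist3h group genes of which one was lower in vehicle-treated KO and the other higher in CP2-treated KO. Capitals mark the 3 motifs just named on either strand, and a match is a description only.
Hist2h3c2: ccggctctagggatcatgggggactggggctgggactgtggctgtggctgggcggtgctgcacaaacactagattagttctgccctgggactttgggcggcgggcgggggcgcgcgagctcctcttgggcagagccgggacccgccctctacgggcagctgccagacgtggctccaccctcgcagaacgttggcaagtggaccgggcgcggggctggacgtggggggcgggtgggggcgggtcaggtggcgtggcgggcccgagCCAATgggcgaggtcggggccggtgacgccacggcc
Hist3h2a: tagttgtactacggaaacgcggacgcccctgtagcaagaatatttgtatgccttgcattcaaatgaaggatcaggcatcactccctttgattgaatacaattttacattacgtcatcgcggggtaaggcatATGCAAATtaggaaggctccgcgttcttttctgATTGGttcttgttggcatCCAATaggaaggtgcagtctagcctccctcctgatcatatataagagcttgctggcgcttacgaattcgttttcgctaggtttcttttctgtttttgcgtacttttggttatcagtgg
Hist3h2ba: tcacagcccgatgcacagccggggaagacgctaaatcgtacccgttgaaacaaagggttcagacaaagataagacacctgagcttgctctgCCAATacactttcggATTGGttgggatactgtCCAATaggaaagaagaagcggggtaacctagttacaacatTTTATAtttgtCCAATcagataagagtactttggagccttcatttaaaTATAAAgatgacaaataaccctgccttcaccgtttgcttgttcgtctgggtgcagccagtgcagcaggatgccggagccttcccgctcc

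The factors that make these messages were also read out. Of 14 genes for histone gene transcription and 3′-end processing, all tested, 2 fell in vehicle-treated KO: Lsm11 of the U7 particle (log2 fold change -0.26, SE 0.08, adjusted p = 0.0349) and Ncbp2, a cap-binding subunit (-0.29, SE 0.08, adjusted p = 0.0184). Over all genes 3.8% were lower there, and the list's median was 0.00798. Slbp, which binds the stem-loop, differed by 0.00 (SE 0.08, adjusted p = 0.984; mean 21 CPM) and Npat, the coactivator of histone gene transcription, by 0.14 (SE 0.07, adjusted p = 0.286; mean 28.7 CPM). Under CP2, KO was lower than WT for 3 of the 14 (Cstf2, Lsm11 and Sympk), against 6.07% of all genes. Within KO, CP2 lowered Cstf2 and Sympk, both of the cleavage machinery, and 470 of all 25601 tested genes.

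Replacement histones are made outside DNA synthesis from polyadenylated messages. Of 11 such genes 1 fell in vehicle-treated KO, H2afv, an H2A.Z gene (log2 fold change -0.41, SE 0.07, adjusted p = 0.000364), while its paralog H2afz differed by -0.14 (SE 0.08, adjusted p = 0.301). Over all genes 3.8% were lower. Within KO, CP2 raised 3 of the 11: H2afv (0.28, adjusted p = 0.0102), H1f0 (0.27, adjusted p = 0.0307) and H3f3a (0.23, adjusted p = 0.00908). The share of all genes raised was 2.08%. The genotype difference in CP2 response passed for H2afv (0.41, SE 0.09, adjusted p = 0.0242), against 0.715% of all genes in either direction. Under CP2, H3f3b, H1f0 and H3f3a were higher in KO than in WT (0.38, 0.24 and 0.18), against 5.54% of all genes. Of 11 histone chaperones 1 rose in vehicle-treated KO, Hira (0.24, adjusted p = 0.0248), and 1 was lower in KO under CP2, Nasp (-0.30, adjusted p = 0.00588). Over all genes 736 of 25601 rose in vehicle-treated KO and 6.07% were lower in KO under CP2. Among 11 genes, 1 call is near these shares and is no result about the list.

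Genes of DNA replication and cell division, when replication-dependent histones are made, gave no call in vehicle-treated KO. None of 20 passed by edgeR, averaged or in F or M alone. Averaged, 4 of the 20 and 5536 of all 25601 tested genes had an unadjusted p under 0.05. DESeq2 called 2 (all genes 9.18%), Mcm2 lower and Ccne2 higher, named after their values were seen. The list's median log2 fold change was -0.01 averaged, -0.216 in F and 0.176 in M. Its sum was 114 and 121 CPM in F and 122 and 115 CPM in M for KO and WT. The proliferation marker Mki67 differed by 0.31 (SE 0.31, adjusted p = 0.605; mean 3.27 CPM) and Top2a by -0.22 (SE 0.41, adjusted p = 0.817; mean 2.77 CPM). In F, means of KO and WT vehicle were 1.83 and 2.5 CPM for Mki67 and 1.19 and 2.74 CPM for Top2a. In M they ran the other way, at 5.88 and 2.79 CPM for Mki67 and 4.55 and 2.67 CPM for Top2a, with SDs of up to 4.51 CPM. CP2 raised Mcm3, a helicase subunit, within KO (0.72, SE 0.19, adjusted p = 0.0250), and Mcm7 was higher in KO than in WT under CP2 (0.21, adjusted p = 0.0321). Each was the only call among the 20 there, and over all genes 2.08% and 5.54% were higher. Of 10 RNAs made without a polyA tail, 5 were found and 2 tested, none called in vehicle-treated KO by edgeR or DESeq2 and none at an unadjusted p under 0.05. ENSMUSG00000119584 differed by 0.40 (SE 0.27, adjusted p = 0.419).

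Several properties of the libraries moved with these groups. Reads outside annotated genes made up 9.24% (6.19% to 11.7%) in KO vehicle F and 6.0% (5.09% to 7.04%) in WT vehicle F, and 12.1% (11.3% to 13.0%) and 10.2% (9.48% to 11.6%) in M. With CP2 they were 7.54% in KO F and 6.02% in WT F. In M with CP2 they were 7.33% (5.18% to 9.06%) in KO and 11.5% (9.05% to 13.2%) in WT, the opposite order to vehicle. With this share as a covariate, 4 members fell in vehicle-treated KO (Hist1h2bc, Hist1h2be, Hist1h4h and Hist2h3c2; median of all 34 -0.80, 29 negative), against 0.566% of all genes (145) lower. Under CP2, 8 were lower in KO than in WT, against 6.61% of all genes (1693), and CP2 within KO called no member and no gene at all (0.0%; 1931 genes at an unadjusted p under 0.05). Whether the share stands for RNA quality was not tested.

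Hemoglobin and other red cell markers, all 5 detected, summed to 92.5 CPM (74.8 to 129) in KO vehicle F and 206 (85.1 to 387) in WT vehicle F, and to 60.8 (38.6 to 87.3) and 400 (115 to 647) in M. Oligodendrocyte precursor markers, both detected and of a cell that divides in the adult brain, summed to 80.0 to 106 CPM in KO vehicle F and 95.9 to 110 in WT vehicle F, and to 85.8 to 93.9 and 93.3 to 102 in M. Markers of neurons (5 of 5 detected) summed to 4120 and 4600 CPM in F and to 4890 and 4040 CPM in M for KO and WT vehicle, which is the opposite order in each letter. The 4 hippocampal CA markers averaged a sum of 236 CPM in KO vehicle F and 235 in WT vehicle F, and summed to 261 to 304 and 176 to 197 in M, where they did not overlap. The equal sums in F hide opposite directions. By mean, Wfs1 was higher in KO vehicle F than in WT vehicle F (167 against 125 CPM). Neurod6 (33 against 56.3), Fibcd1 (35.1 against 48.7) and Spink8 (1.69 against 4.4) were lower. In M the mean of each of the 4 was higher in KO. With vehicle, the 4 oligodendrocyte markers summed to 6340 to 7230 CPM in KO M and 7610 to 8130 in WT M, without overlap. In F they overlapped, at 6270 to 9540 CPM in KO vehicle and 6670 to 10200 in WT vehicle. In KO M, the 4 oligodendrocyte markers went from 6340 to 7230 CPM with vehicle to 6390 to 12100 CPM with CP2, and the 4 microglia markers from 187 to 224 CPM to 215 to 265 CPM. The 3 choroid plexus markers went in KO M from 550 to 1040 CPM with vehicle to 176 to 2600 CPM with CP2. The 4 astrocyte markers summed to 1490 to 2640 CPM in KO CP2 M and 982 to 1260 in WT CP2 M, without overlap. Each of the 4 had the higher mean in KO there, Gfap with 1010 against 315 CPM. With CP2 in F and with vehicle in either letter, the astrocyte sums of KO and WT overlapped. The part of these cell types and regions in the members' differences was not tested.

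Gene counts came to between 46100000 and 88600000 per library, and reads with no unique position, which histone copies would produce, to 4.05% to 5.91%. Ndufs4 itself was lower in every KO library than in every WT library of the same letter and treatment (30.1 to 37.0 CPM against 45.2 to 58.9 in vehicle F, 27.4 to 29.5 against 38.9 to 50.1 in vehicle M). A count per gene does not show which part was deleted. Xist lay between 438 and 797 CPM in F libraries and at most at 0.833 CPM in M libraries, apart from 47.2 CPM in the KO CP2 M library L291. ENSMUSG00000119584 took on average 1.26% to 1.75% of the counts in the F groups and 2.92% to 4.54% in the M groups. With this share as a covariate, the difference between F and M stayed called for Hist1h4c (all genes 0.0898%). What the share stands for was not tested. In the KO CP2 M library L266 it was 1.01%, against 4.79% to 5.87% in the other libraries of that group. L266 and L291 were left out together in the values given above.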

How the data were processed

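PolyA-enriched RNA of 36 mouse brain libraries was sequenced after Trizol extraction and Illumina TruSeq preparation, per the labels' protocols. The authors deposited raw counts per Ensembl gene, and the submitters' processing notes name STAR, HTSeq and GRCm39. Versions, annotation release, strand setting and treatment of reads with several matches are not given in the sources used here, so near-identical and overlapping histone genes are uncertain. The members and gene lists were chosen with earlier results of these data known. Symbols and transcript models came from GENCODE M21 by gene identifier (52073 of 56980 rows, 91.4%, holding 97.2% of the counts), and promoters from RefSeq. The summary lines of the table were left out.

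All 36 libraries entered 1 edgeR 4.0.16 fit in R 4.3.3, with a coefficient per group, TMM library sizes, filterByExpr with a minimum count of 10, and robust glmQLFit. Tests were made with glmQLFTest over 25601 genes in 12 contrasts, Benjamini-Hochberg adjusted within each at 0.05. Averages weight F and M equally. SE is the log2 fold change over the square root of F. The functions were tested on simulated data. Alternatives were DESeq2 1.42.0, its size factors, no filter, 3 covariates, and leaving out libraries. The labels do not say whether libraries are separate litters or batches, so p-values measure the spread between these samples.

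Given in full are members called in an averaged contrast and the member of each class with the highest CPM; Hist2h2be, Hist1h4c and Hist1h1d were added after their values were seen. Other lists name called genes, at most 3 a contrast, and fixed ones such as Slbp, Npat and Mki67. Intervals cover counting error only.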

Additional observations from a re-analysis of the deposited data

Results flagged for a closer look

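Within groups of 5 libraries, 6 of 84 group checks over 14 members found a library far from the others, and chance gives about 1 in 20. WT vehicle F library L252 was highest for Hist1h2be (9.01 CPM, the next 5.1) and for Hist1h4h (4.1 CPM, the next 2.79). KO CP2 F library L234 was highest for Hist2h3c2 (1.83 CPM, the next 0.992) and Hist1h1d (0.607 CPM, the next 0.129). KO vehicle F library L282 was highest for Hist2h4 (1.03 CPM, the next 0.358), and WT CP2 F library L311 was lowest for Hist3h2a (9.9 CPM, the next 13.2). The effect of genotype with vehicle on Hist1h4c differed between F and M by 4.99 on the log2 scale (edgeR adjusted p = 0.0331), on 3 counts in KO vehicle M. DESeq2 did not call this difference.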

How the results depend on the processing

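The calls in averaged comparisons kept their direction under the 7 alternatives and without single libraries. Adjusting for reads outside annotated genes turned values that were not called: in KO M, CP2 against vehicle went from 1.2 to -0.55 for Hist1h1d and from 0.15 to -0.06 for Hist3h2a on the log2 scale. Hist1h2bc, Hist1h2be, Hist1h4h and Hist2h3c2 in vehicle-treated KO against WT stayed called in all 7 alternatives and in all 16 fits without 1 vehicle library, and Hist1h2be, Hist2h3c2 and Hist3h2ba under CP2 in all 7 and in all 20 fits without 1 CP2 library. With that adjustment, members called were 4 with vehicle averaged (all genes 1.14%, in either direction), 1 in F (0.609%) and 2 in M (0.258%). They were 2 under CP2 in M (3.37%), 0 for CP2 in KO averaged (0.0%) and 0 in KO M (0.0%). With the share of ENSMUSG00000119584 as a covariate they were 2 with vehicle in M (0.242%). With the title number as a covariate they were 1 with vehicle in M (0.168%), 2 under CP2 in M (7.83%), 0 for CP2 in KO averaged (0.199%), 1 in KO M (2.65%) and 0 for the difference between F and M (0.0234%). Without L266 and L291 they were 2 with vehicle in M (0.464%) and 1 for CP2 in KO M (1.45%). The DESeq2 test gave 2 under CP2 in F (all genes 3.54%), 5 in M (12.7%), 7 for CP2 in KO averaged (6.17%), 1 in KO F (0.805%), 1 for the difference in CP2 response (2.27%) and 0 for that between F and M (0.496%), so that in CP2 M and the difference in response the members' share lies near that of all genes. With no filter they were 1 for CP2 in KO M (2.37%) and 0 for the difference between F and M (0.0354%). The cause of these shifts was not tested.

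Leaving out 1 library gave 5 to 9 members with vehicle averaged (5 without KO vehicle M L322 or WT vehicle M L300), 5 to 8 in F (5 without KO vehicle F L281 or WT vehicle F L252) and 0 to 4 in M (2 without L319, 0 without L322, L285 or L300). Under CP2 it gave 4 to 8 averaged, 1 to 5 in F (5 without KO CP2 F L234, 2 without L233) and 1 to 2 in M (2 without KO CP2 M L298 or WT CP2 M L267). For CP2 in KO it gave 1 to 4 averaged (1 without L322), 0 in all fits in F, and 0 to 3 in M (0 without L322, 1 without L266, L291, L292 or L319). CP2 in WT gave 0 in all fits, the difference in CP2 response 0 to 1, and that between F and M 0 to 1. No paired analysis was possible because no replicate number is shared between groups. Depth limits members under 1 CPM, and a member not called is not shown to be equal.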
